A study of Mus musculus with 10 samples.

Results

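Mest, also called Peg1, is 1 gene of 16593 with a symbol on the array, and it was measured in 5 mouse cell lines by every probe annotated to it, which gave 3 probes of 25697. Each probe was kept apart. The probes are ILMN_2642417, ILMN_2642418 and ILMN_2846904. All 3 are annotated to the same RefSeq transcript, and all 3 passed the filter on dim probes. The lines are piPS-2F, pluripotent cells induced in parthenogenetic neural stem cells that overexpressed Oct4 and Klf4; pESC-B, parthenogenetic embryonic stem cells that were SSEA-1 sorted, by a carbohydrate antigen of the cell surface; pNSC, parthenogenetic neural stem cells; fESC, female embryonic stem cells labelled OG2, whose array titles read fESC-B; and fNSC, female neural stem cells. Each line was hybridised to 2 arrays, called replicate 1 and 2, which makes 10 arrays. One label of piPS-2F replicate 2 names Klf5 in place of Klf4. The series describes the 2 arrays of a line as duplicates of 1 sample, so p-values measure only the spread between duplicate arrays, which may be technical, and each line stands for itself and not for a class of cells. The labels name OG2 for fESC and give no strain for the other lines, and no passage or age for any.

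Parthenogenetic cells come from eggs that began to develop without a sperm, and so they hold maternal chromosomes only. Imprinted genes are those of which mainly 1 parental copy is active, because the other copy carries a silencing mark set in the germ line. Mest is the textbook case of a paternally expressed imprinted gene: in the mouse its maternal copy is methylated at the promoter and silent in most tissues. The gene encodes a protein of the alpha/beta hydrolase fold family, is strongly transcribed in embryonic mesoderm and its derivatives, from which it takes its name, and mouse embryos that lack the paternal copy are small.

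In the RefSeq annotation of GRCm38.p6, Mest lies on chromosome 6 and is transcribed from the plus strand. It overlaps the neighbouring gene Copg2 over 913 bases, and it wholly contains the microRNA gene Mir335. Neither Copg2 nor Mir335 had a probe among those named here, and no source used here places the 3 Mest probes within the transcript, so isoforms were not told apart. RefSeq lists starts at 2 places 4544 bases apart, the downstream one with 2 starts within 3 bases of each other. The 250 bases before the upstream start and before the first downstream start are shown because the parental mark is known to lie at the promoter. Capitals mark each CpG, the dinucleotide that carries methylation, and both runs read 5' to 3' on the plus strand of GRCm38.p6.

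Upstream start, chr6:30733256-30733505: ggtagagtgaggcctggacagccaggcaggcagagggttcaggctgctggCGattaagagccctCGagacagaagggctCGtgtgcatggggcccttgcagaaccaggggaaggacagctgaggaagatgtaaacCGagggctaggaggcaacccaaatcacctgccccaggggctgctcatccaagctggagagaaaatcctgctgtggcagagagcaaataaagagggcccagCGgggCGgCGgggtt
Downstream start, chr6:30737800-30738049: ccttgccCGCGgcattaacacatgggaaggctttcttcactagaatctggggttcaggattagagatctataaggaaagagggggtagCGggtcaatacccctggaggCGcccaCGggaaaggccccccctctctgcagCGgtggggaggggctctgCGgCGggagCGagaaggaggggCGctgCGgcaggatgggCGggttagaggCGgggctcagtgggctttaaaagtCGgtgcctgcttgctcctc

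The downstream window held 14 CpGs, with an observed over expected ratio of 0.61, and the upstream window held 7, with a ratio of 0.32. Of 32817 RefSeq windows of that length, 29.3% held at least 14 CpGs and 46.3% at least 7. The hexamer TGCCGC, the core of the site bound by the imprint-keeping zinc finger protein Zfp57, was searched on both strands. The downstream window held 2 matches, both on the reverse strand (GCGGCA), starting 242 and 67 bases before the start, and the upstream window held none. Among all windows 8.68% held at least 1 match and 0.87% at least 2. Methylation was not measured, and these letters describe the sequence only.

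Between 9938 and 11837 probes were detected per array, at a detection p under 0.01. The mean deposited intensity lay between 287.0 and 327 for piPS-2F and pESC-B arrays, against 476 to 625 for pNSC, fESC and fNSC, so a comparison across these sets is also one of dimmer with brighter arrays, and line and brightness cannot be told apart there. The lines carried the markers their labels call for. All 10 pluripotency markers were detected on every array of piPS-2F, pESC-B and fESC, and 1 or 2 of them per array of pNSC and fNSC. Of 9 measured neural stem cell markers, 7 were detected on each array of pNSC and fNSC, all but Pax6 and Msi1, and 2 to 4 on each array of the pluripotent lines.

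Mest was bright in the female neural stem cells, lower in the female embryonic stem cells, faint in piPS-2F and undetected in pESC-B and pNSC. Probe ILMN_2846904 had deposited intensities, which are linear and background-subtracted, of 64.1 and 95.2 in piPS-2F, 5.88 and 6.29 in pESC-B, and -15.7 and -6.84 in pNSC. The same probe had 1857 and 1664 in fESC and 9262 and 6456 in fNSC. Its detection p was 0 on every array of piPS-2F, fESC and fNSC, 0.128 and 0.0977 in pESC-B, and 0.886 and 0.635 in pNSC. The parthenogenetic and female lines did not overlap, and neither did the detected lines piPS-2F, fESC and fNSC among themselves.

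The second probe, ILMN_2642417, gave the same order among the lines where it was detected. Its intensities were 58.6 and 71.7 in piPS-2F, 6.97 and 3.57 in pESC-B, 22.3 and -15.2 in pNSC, 838 and 938 in fESC, and 3848 and 3308 in fNSC. The detection p was 0 on both arrays of piPS-2F, fESC and fNSC, 0.099 and 0.219 in pESC-B, and 0.0852 and 0.916 in pNSC. Its 2 arrays of pNSC lay on either side of 0, and both were undetected.

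The third probe, ILMN_2642418, gave 9.51 and 16.7 in piPS-2F, 4.31 and 0.36 in pESC-B, -1.03 and -8.01 in pNSC, 294 and 336 in fESC, and 1440.0 and 1394 in fNSC. It was detected on 1 of the 2 arrays of piPS-2F, replicate 2 (detection p 0.00501, against 0.0388 on replicate 1), and on no array of pESC-B or pNSC. By this probe alone piPS-2F is therefore at the edge of detection, while the other 2 probes place it above background on both arrays.

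After normalization the log2 signal of ILMN_2846904 averaged 7.50 ± 0.31 in piPS-2F, 4.87 ± 0.06 in pESC-B, 4.43 ± 0.06 in pNSC, 10.77 ± 0.08 in fESC and 12.81 ± 0.27 in fNSC (SD, n = 2 arrays each). ILMN_2642417 averaged 7.27 ± 0.14 in piPS-2F, 4.81 ± 0.13 in pESC-B, 4.68 ± 0.41 in pNSC, 9.88 ± 0.14 in fESC and 11.63 ± 0.02 in fNSC. ILMN_2642418 averaged 5.43 ± 0.37 in piPS-2F, 4.65 ± 0.12 in pESC-B, 4.51 ± 0.07 in pNSC, 8.51 ± 0.18 in fESC and 10.24 ± 0.12 in fNSC. From low to high every probe ran pNSC, pESC-B, piPS-2F, fESC, fNSC. The neighbours pNSC and pESC-B did not differ by the 2-fold rule used below, and both are bounds on the level rather than measured levels. For scale, the dimmest detected probe of an array had a log2 signal between 5.31 and 5.98.

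**Figure D1:**
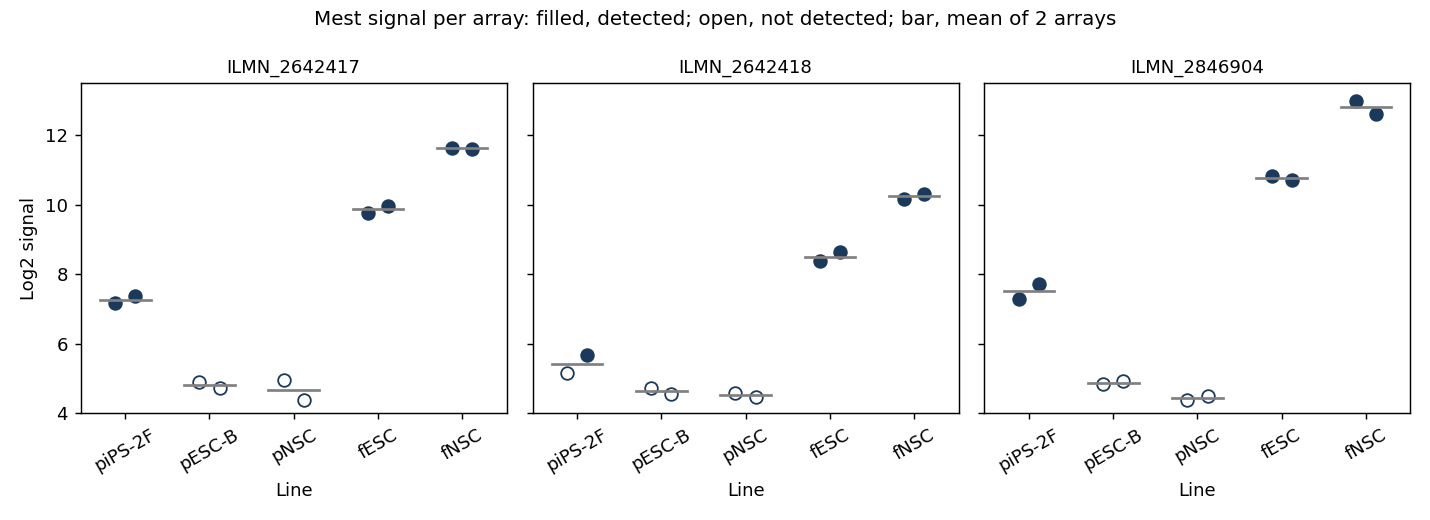
Log2 signal (vertical axis) of the 3 Mest probes, 1 panel each, in the 5 lines (horizontal axis). Each point is 1 array, filled where the probe was detected (detection p under 0.01) and open where it was not, and the grey bar is the mean of 2 arrays. By ILMN_2846904 the lines average 7.50 in piPS-2F, 4.87 in pESC-B, 4.43 in pNSC, 10.77 in fESC and 12.81 in fNSC.

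The 3 probes moved together across the arrays. Their log2 signals correlated at 0.977 to 0.997 over the 10 arrays, which form 5 pairs of duplicates, so these values describe the agreement of probes on the same arrays. ILMN_2642418 spanned a smaller range than the other 2.

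Differences were tested in a linear model with 1 mean per line, fitted by limma to all 13564 probes that were detected on both arrays of at least 1 line, with Benjamini-Hochberg adjustment over them. To be called higher or lower a probe had to differ by 2-fold or more with an adjusted p under 0.05. There were 7 pairwise and 3 combined contrasts. Where 1 line was undetected, the fold is a lower bound: on each array of that line the probe was given the signal of the dimmest detected probe, or its own where that was higher.

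The neural lines ask what the Mest signal is in neural stem cells with maternal chromosomes only. All 3 probes fell in pNSC against fNSC, where 6.24% of all tested probes were called lower and 4.79% higher. ILMN_2846904 was at least 156-fold lower (difference -8.37 ± 0.18, SE, adjusted p = 7.3e-09), ILMN_2642417 at least 69.1-fold (-6.96 ± 0.19, adjusted p = 1.5e-08) and ILMN_2642418 at least 26.4-fold (-5.73 ± 0.19, adjusted p = 5.5e-08). As pNSC was undetected, the log2 differences are set by background and by the brightness of each probe in fNSC, and they were not ranked. The pNSC arrays were the brighter ones (mean intensity 625 and 617, against 527 and 479 in fNSC).

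The embryonic lines gave the same direction. All 3 probes fell in pESC-B against fESC, where 13.8% of all tested probes were called lower and 13.6% higher. ILMN_2846904 was at least 38.0-fold lower (-5.90 ± 0.18, adjusted p = 5.7e-08), ILMN_2642417 at least 20.4-fold (-5.07 ± 0.19, adjusted p = 7.5e-08) and ILMN_2642418 at least 7.89-fold (-3.86 ± 0.19, adjusted p = 2.4e-07). The pESC-B arrays were dimmer than those of fESC (mean intensity 327 and 287.0, against 495 and 476).

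In piPS-2F Mest was also lower than in fESC. Here 13% of all tested probes were called lower and 11.9% higher, and the 3 Mest probes were among those called lower. ILMN_2846904 fell 9.64-fold (-3.27 ± 0.18, adjusted p = 6.0e-07) and ILMN_2642417 fell 6.10-fold (-2.61 ± 0.19, adjusted p = 3.1e-06). ILMN_2642418 differed by -3.08 ± 0.19 (adjusted p = 9.4e-07), but it was detected on 1 of 2 piPS-2F arrays and its piPS-2F mean is at background, so no fold is given. These folds carry an offset of 16 that shrinks differences of dim probes. On the deposited linear scale the mean piPS-2F intensity was 4.52%, 4.16% and 7.34% of the fESC mean for ILMN_2846904, ILMN_2642418 and ILMN_2642417. Once each intensity was divided by its array's mean, because the piPS-2F arrays were dimmer, the shares were 7.62%, 6.998% and 12.3%.

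The signal in piPS-2F lay above that of pESC-B, on arrays of similar brightness, and 2 of the 3 probes passed the test. Of all tested probes 4.47% were called higher and 4.65% lower in that comparison. ILMN_2846904 was at least 3.94-fold higher (2.63 ± 0.18, adjusted p = 7.7e-06) and ILMN_2642417 at least 3.35-fold (2.46 ± 0.19, adjusted p = 1.7e-05). ILMN_2642418 differed by 0.78 ± 0.19 (adjusted p = 0.0116), which is less than 2-fold. Its piPS-2F mean lay below the dimmest detected signals of the pESC-B arrays, so no fold is given. Without piPS-2F replicate 1, where this probe was undetected, the difference was 1.07 and was called.

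Against pNSC, the cell type from which piPS-2F was made, the same 2 probes were higher in piPS-2F, in a comparison where 26.8% of all tested probes were called higher and 25.7% lower. ILMN_2846904 was at least 3.96-fold higher (3.07 ± 0.18, adjusted p = 1.3e-07) and ILMN_2642417 at least 3.36-fold (2.59 ± 0.19, adjusted p = 6.8e-07). ILMN_2642418 differed by 0.91 ± 0.19 (adjusted p = 0.0011), again less than 2-fold, and by 1.21 without piPS-2F replicate 1, when it was called. By 2 probes, then, Mest was faint but detected in piPS-2F and undetected in pNSC, whose arrays were the brighter ones.

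Between pESC-B and pNSC no Mest probe was called, although 25.1% of all tested probes were called higher and 24.7% lower. The differences were 0.44 ± 0.18 for ILMN_2846904 (adjusted p = 0.050), 0.13 ± 0.19 for ILMN_2642417 (0.55) and 0.14 ± 0.19 for ILMN_2642418 (0.53). Both lines were undetected by every probe, so these differences compare signals at background, and no fold is given. ILMN_2846904 was called without background correction (1.01) and with the authors' processed values (1.30).

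Mest was lower in fESC than in fNSC by every probe, in a comparison where 23.6% of all tested probes were called lower and 23.5% higher. ILMN_2846904 fell 4.09-fold (-2.03 ± 0.18, adjusted p = 3.1e-06), ILMN_2642417 fell 3.37-fold (-1.75 ± 0.19, adjusted p = 1.5e-05) and ILMN_2642418 fell 3.33-fold (-1.74 ± 0.19, adjusted p = 1.2e-05). On the linear scale fESC had 22.2% to 24.8% of the fNSC intensity, and 23.1% to 25.8% after division by the array mean. Every probe was detected on all 4 arrays of these lines.

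The combined contrasts ask the same of all lines at once. The parthenogenetic lines, with piPS-2F and pESC-B averaged first, differed from the female lines, averaged over neural and pluripotent cells, by -6.48 ± 0.12 for ILMN_2846904 (adjusted p = 2.0e-09), -5.40 ± 0.13 for ILMN_2642417 (7.3e-09) and -4.60 ± 0.12 for ILMN_2642418 (1.9e-08). Of all tested probes 7.8% were called lower and 3.75% higher there. These values also take in the undetected signals of pESC-B and pNSC. The gap in piPS-2F against fESC was smaller than that in pNSC against fNSC for ILMN_2846904 and ILMN_2642417, in a contrast where 13.9% of all tested probes were called higher and 14.5% lower. ILMN_2642418 was called too, with its piPS-2F mean at background. All 3 were also called in the contrast of the embryonic with the neural gap, where 14.8% were called higher and 14.9% lower. There both gaps are lower bounds, at least 38.0-fold and at least 156-fold for ILMN_2846904, so which gap is the smaller was not measured.

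**Figure D2:**
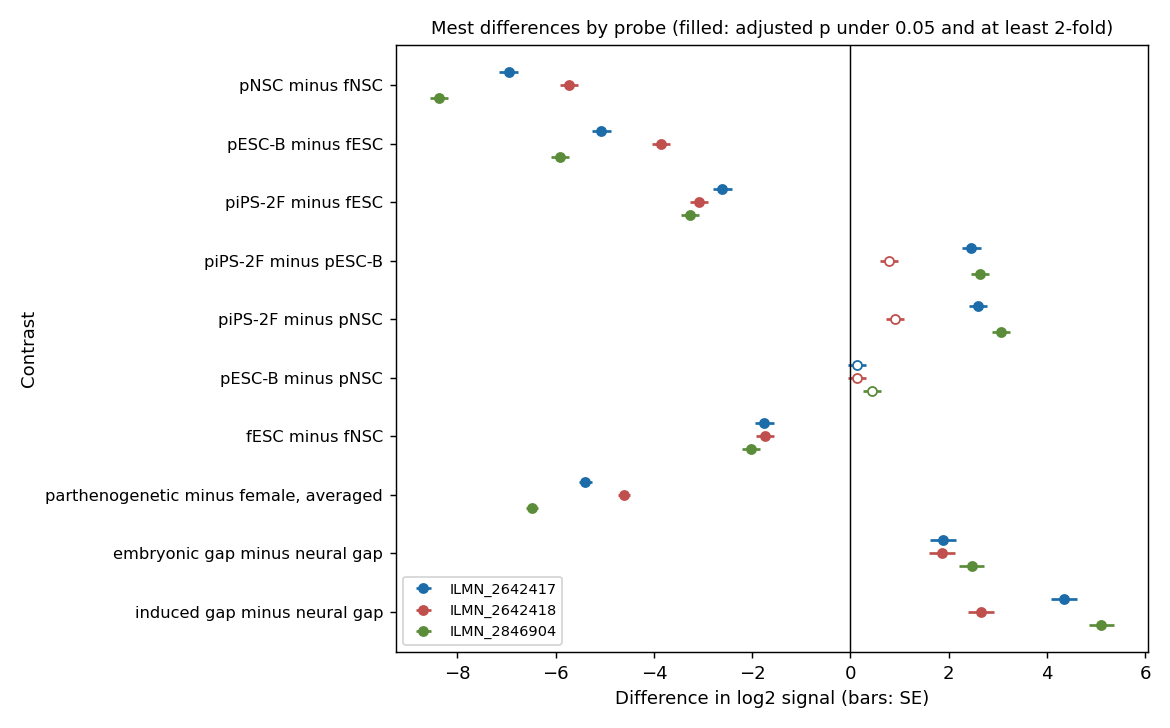
Difference in log2 signal (horizontal axis, bars are SE) of the 3 Mest probes, by colour, in the 10 contrasts (vertical axis). Filled points were called and open points were not. All 3 probes lie below 0 in each contrast of a parthenogenetic with a female line, from -8.37 in pNSC minus fNSC to -2.61 in piPS-2F minus fESC, and within 0.44 of 0 in pESC-B minus pNSC.

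Because Mest is abundant in embryonic fibroblasts, on which pluripotent cells are often grown, a list of 12 feeder fibroblast markers was read beside it. Of these, 11 had a probe. Their summed linear signal was 4763 and 6212 in piPS-2F, 2697 and 2682 in pESC-B, 1262 and 1220 in pNSC, 5741 and 5185 in fESC, and 797 and 678 in fNSC. In piPS-2F against pESC-B, where 4.47% of all tested probes were called higher and 4.65% lower, 3 of 6 tested markers were higher and none was lower, namely the smooth muscle actin gene Acta2 by 1.12 ± 0.15, the proteoglycan gene Dcn by 1.18 ± 0.27 and the collagen gene Col1a1 by 1.02 ± 0.23. Fibroblast collagen genes Col1a2 and Col3a1, the matrix gene Postn and the receptor gene Pdgfrb were undetected on every array of both lines. The sum was thus lower in pESC-B than in piPS-2F and fESC, whose ranges overlapped, and lowest in fNSC. Acta2 alone made up most of the sum in piPS-2F, pESC-B and fESC. Its log2 signal averaged 12.13 in piPS-2F, 11.01 in pESC-B, 8.90 in pNSC, 12.13 in fESC and 7.26 in fNSC. Col3a1 was detected in fESC alone (7.08 ± 0.27, both arrays). It was called lower in piPS-2F and in pESC-B against fESC (13% and 13.8% of all tested probes). The part of fibroblast RNA in the piPS-2F and fESC signals was not tested. In bulk samples more cells with the transcript and more transcript per cell cannot be told apart. No source used here says whether feeders were used. The neural stem cell markers summed to 781 and 771 in piPS-2F, against 82630 and 85746 in pNSC, and Mest was undetected in pNSC. The part of pNSC RNA in the piPS-2F signal was not tested.

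Mest was then set beside other imprinted genes. The list of paternally expressed genes had 34 entries other than Mest, of which 26 had a probe and 16 passed the filter on dim probes. Of these 16, 8 fell and none rose in pNSC against fNSC (6.24% and 4.79% of all tested probes), with a median difference of -0.92, against 0.02 over all probes. Peg3 and Peg10 were detected in fESC and fNSC alone, and Nnat on both arrays in fNSC alone. They passed the filter only through female lines, so their falls here and below follow in part from the filter. Snrpn, a splicing protein gene of the Prader-Willi region, was at least 34.5-fold lower, and Ndn, a growth suppressor gene of that region, fell 48.3-fold. Nnat, which encodes a small membrane proteolipid of the brain, fell by 4.13 on the log2 scale, with 1 of 2 pNSC arrays detected. Among the genes that were not called were Inpp5f (-0.57 ± 0.17) and Gab1 (0.05 ± 0.14), while Dlk1, Sfmbt2 and Ddc were undetected in both neural lines. Beside them stand the bounds for Mest, at least 156-fold, 69.1-fold and 26.4-fold by its 3 probes.

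In pESC-B against fESC 8 of the 16 fell and 1, Sfmbt2, rose (13.8% and 13.6% of all tested probes), with a median of -1.03, against 0.12 over all probes. Snrpn fell 29.6-fold, and the amino acid transporter gene Slc38a4 fell by 3.70 on the log2 scale, with 1 of 2 pESC-B arrays detected. Peg3 and Peg10, which passed the filter only through female lines, were at least 3.69-fold and 4.34-fold lower. Igf2, the fetal growth factor gene, differed by -0.66 ± 0.20 and Mkrn3 by 0.38 ± 0.16, and neither was called. Some members of the list are imprinted mainly in the placenta or in single tissues, Sfmbt2, Gab1 and Ddc among them. In piPS-2F against fESC 6 of 16 fell and 1, Gab1, rose (13% and 11.9% of all tested probes), with a median of -0.60, against 0.13 over all probes.

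Between piPS-2F and pESC-B, where 2 Mest probes rose, 4 of the 16 rose and none fell (4.47% and 4.65% of all tested probes). The median was 0.29, against 0.00 over all probes. Snrpn rose 4.21-fold (2.07 ± 0.15), Inpp5f rose 2.96-fold, Ddc 2.88-fold and Impact 2.01-fold. Peg3, Peg10, Nnat and Nap1l5 were undetected in both lines. Ndn, Igf2 and Mkrn3 were detected in both lines and differed by 0.39, 0.30 and -0.27.

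Between the female lines Mest and most of the list moved in opposite directions. Of the 16, 10 rose in fESC against fNSC and 4 fell (23.5% and 23.6% of all tested probes), so the count of 4 that fell is near the background. The median was 1.43, against 0.03 over all probes. Igf2 rose by 5.51 ± 0.20 and Slc38a4 by 4.198 ± 0.33 on the log2 scale. Each was detected on 1 of 2 fNSC arrays with a mean at background there, so no fold is given. The 4 that fell, as Mest did, were Nap1l5, at least 18.3-fold lower, Nnat, at least 13.3-fold lower, Inpp5f, 3.41-fold, and Ndn, 2.78-fold.

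The list of maternally expressed genes, of which parthenogenetic cells carry 2 active copies where imprints hold, had 30 entries, 26 with a probe and 17 tested. In pNSC against fNSC 2 rose and none fell (4.79% and 6.24% of all tested probes; median 0.11, against 0.02 over all probes), namely Cdkn1c, an inhibitor of the cell cycle, 8.44-fold, and H13, a signal peptide peptidase gene, 2.40-fold. In pESC-B against fESC 9 rose and 2 fell (13.6% and 13.8% of all tested probes; median 1.06, against 0.12 over all probes), among them Grb10, an adaptor that restrains growth signals, which rose 9.87-fold, and Phlda2, 3.63-fold. Ube3a and Ascl2 were the 2 that fell, 6.29-fold and 2.06-fold. Slc22a18, among the 9 that rose, passed the filter only through piPS-2F and pESC-B.

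**Figure D3:**
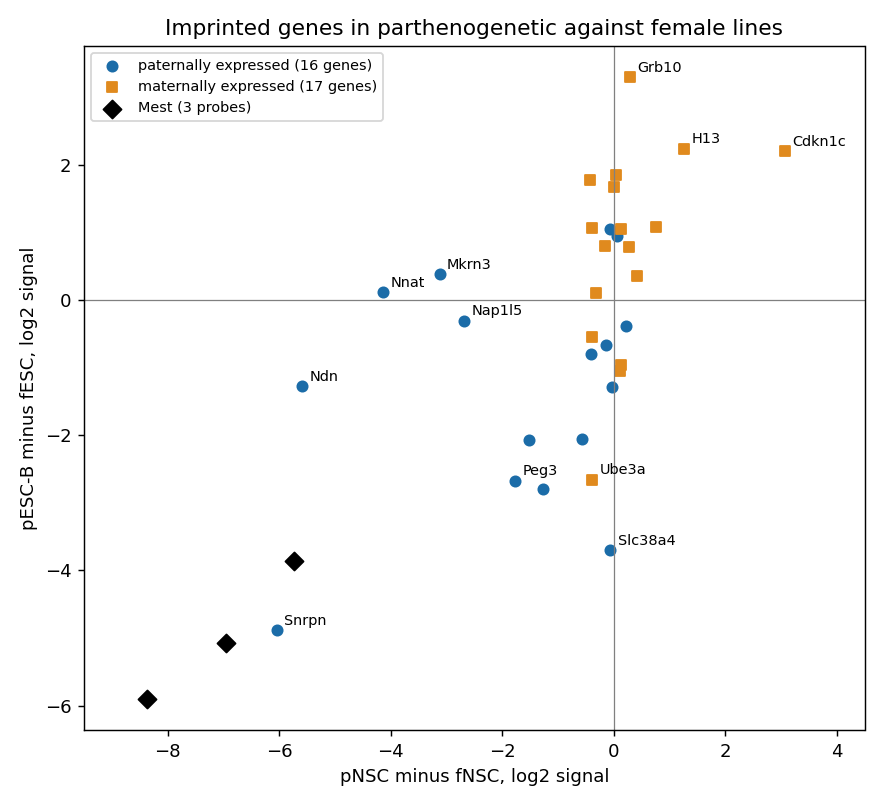
Difference in log2 signal in pNSC minus fNSC (horizontal axis) and in pESC-B minus fESC (vertical axis), comparisons that share no array. Circles are 16 paternally and squares 17 maternally expressed genes, and diamonds are the 3 Mest probes, which lie with Snrpn (-6.05 and -4.89) in the lower left, below 0 on both axes.

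Published work groups Mest with other imprinted genes in a network of growth regulators that are often transcribed together. Of 15 such genes listed, 11 were tested. In pNSC against fNSC 3 of them fell, Peg3, Ndn and Nnat, and 1 rose, Cdkn1c (6.24% and 4.79% of all tested probes). Peg3 and Nnat passed the filter only through female lines. In pESC-B against fESC (13.8% of all tested probes called lower and 13.6% higher) 3 fell, Peg3, Ndn and Slc38a4, and 4 rose, Cdkn1c, Grb10, Gnas and Igf2r. These 4 stand on the list of maternally expressed genes, and every one of the 11 is also on a list above. In piPS-2F against pNSC 8 of the 11 rose and 1 fell (26.8% and 25.7% of all tested probes). Their median was 1.83, against 0.02 over all probes. The 3 Mest probes differed there by 3.07, 2.59 and 0.91 (the last not called), from an undetected pNSC signal. In fESC against fNSC 7 of the 11 rose and 3 fell (23.5% and 23.6% of all tested probes), with a median of 2.996. All 3 Mest probes fell in that comparison (-2.03 to -1.74). In pESC-B against pNSC 7 rose and 1 fell (25.1% and 24.7%), with a median of 2.18, and no Mest probe was called.

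The genes around Mest on chromosome 6 were read in the same contrasts. The neighbour list held 21 protein-coding genes, from RefSeq order and from a list of the region, of which 16 had a probe and 8 were tested. None of the 8 was called in pNSC against fNSC, where 6.24% of all tested probes were called lower and 4.79% higher, so a count of 0 among 8 is near the background. The differences lay between -0.15 for Cep41, the nearest gene upstream and a ciliary protein gene, and 0.54 for Klhdc10. In pESC-B against fESC Klhdc10 alone rose (1.03 ± 0.13) and none fell (13.6% and 13.8% of all tested probes). Cep41 differed there by 0.07 ± 0.15 and Mkln1, the nearest tested gene downstream, by -0.19 ± 0.13. None was called in piPS-2F against fESC (11.9% of all tested probes called higher and 13% lower), nor in piPS-2F against pESC-B (4.47% and 4.65%). The carboxypeptidase genes Cpa1, Cpa4 and Cpa5 next to Cep41, and Tsga13, downstream, were among the 8 genes with a probe that did not pass the filter, and they were detected on no array. Copg2 and Klf14, of which Klf14 is itself imprinted in the mouse and expressed from the maternal copy, had no named probe and were not analysed here.

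**Figure D4:**
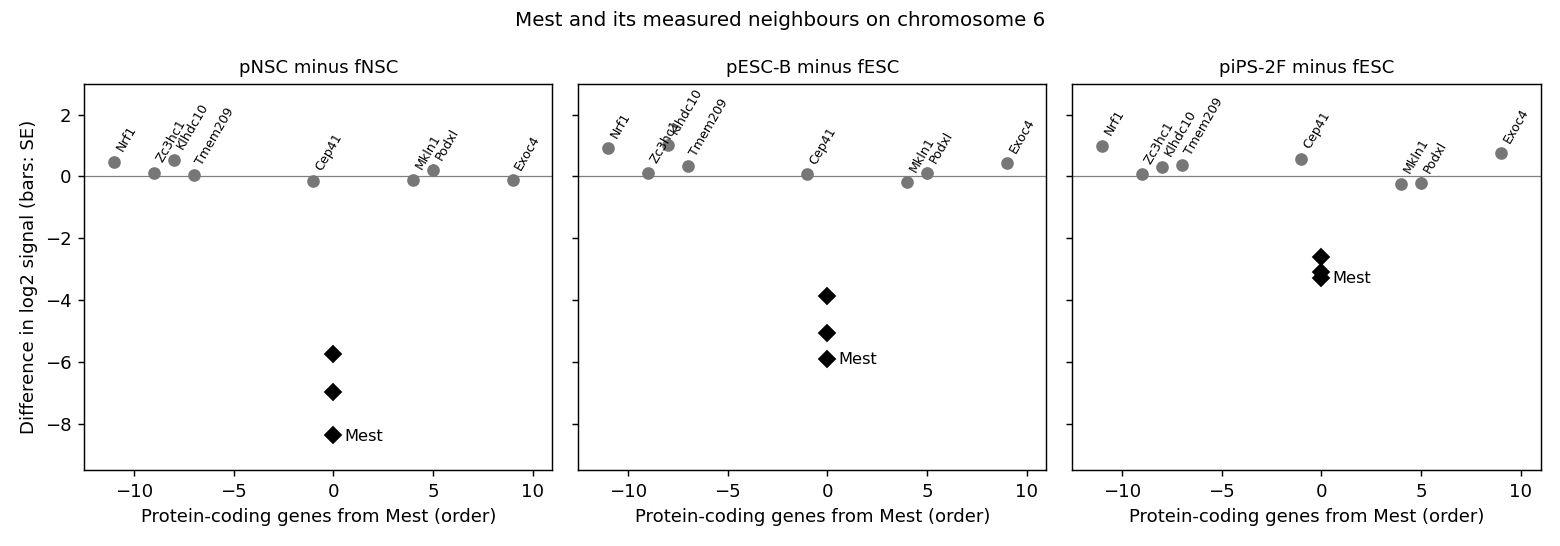
Difference in log2 signal (vertical axis, bars are SE, mostly hidden by the points) of Mest (diamonds, 3 probes) and its 8 tested neighbours (circles) against their order in protein-coding genes from Mest (horizontal axis), in 3 contrasts. The neighbours lie between -0.23 and 1.03 in all 3 panels and the Mest probes between -8.37 and -2.61.

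Factors that keep imprints were also read. Of 14 listed, 11 had a probe and 8 were tested. None of the 8 was called in pNSC against fNSC (4.79% of all tested probes called higher and 6.24% lower) or in piPS-2F against pESC-B (4.47% and 4.65%). In pESC-B against fESC (13.6% and 13.8%) only the DNA methyltransferase gene Dnmt3b rose (1.14 ± 0.20). It alone was also called in piPS-2F against fESC (1.19 ± 0.20), where 11.9% of all tested probes were called higher and 13% lower. Such counts among 8 are near the background. The maintenance methyltransferase gene Dnmt1 averaged 10.69 ± 0.02 in piPS-2F, 10.87 ± 0.01 in pESC-B, 10.09 ± 0.03 in pNSC, 10.64 ± 0.03 in fESC and 9.95 ± 0.18 in fNSC. Its recruiting factor Uhrf1 and the corepressor gene Trim28 were detected on every array. Dppa3, which protects imprints in the early embryo, and Dnmt3l were detected in the 3 pluripotent lines and undetected in both neural lines. Zfp57 had no named probe and was not analysed here.

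Genes of early mesoderm, the tissue in which Mest is best known, were also read. Of 12 listed, 11 had a probe and 6 were tested, and the summed linear signal of the 11 was 454 and 406 in piPS-2F, 492 and 621 in pESC-B, 1126 and 1059 in pNSC, 506 and 500.0 in fESC, and 685 and 625 in fNSC. In pNSC against fNSC, where 4.79% of all tested probes were called higher and 6.24% lower, the receptor gene Pdgfra rose (2.88 ± 0.27) and the transcription factor genes Gsc (-2.07 ± 0.27) and Twist1 (-1.86 ± 0.15) fell. The sum in pNSC includes Pdgfra, which neural precursors are also known to express.

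The genes whose pattern was most like that of Mest were found by the Pearson correlation of log2 signals over the 10 arrays, with ILMN_2846904 as the query. Only named genes, clone names left out, whose line means span at least 2 log2 units were compared, 4024 in all. The 6 with the highest values were Arpc1b, a subunit of the complex that branches actin filaments (0.984), Ddx6, an RNA helicase of processing bodies (0.975), the splicing factor gene Cwc22 (0.937), Zbtb43 (0.937), Zfand1 (0.934) and Il17rc, a receptor gene for interleukin 17 (0.933). These values rest on 5 pairs of duplicate arrays, and no test is attached to them. With ILMN_2642417 as the query Arpc1b and Ddx6 again ranked 1st and 2nd, and with ILMN_2642418 they ranked 1st and 3rd.

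The line means of Arpc1b, Ddx6 and Cwc22 ran in the order of Mest, but not every step was resolved. In fESC against fNSC Ddx6 differed by -0.279 ± 0.19 and Cwc22 by -0.145 ± 0.246. In pESC-B against pNSC, where Mest was undetected in both, none of these genes was called. Zbtb43 (0.29 ± 0.20) and Il17rc (0.003 ± 0.15) were not lower in fESC than in fNSC, and Zfand1 had its lowest mean in pESC-B. The 6 genes were chosen by likeness to Mest on these same arrays, so a fall in pNSC against fNSC follows from that choice. All 6 fell there, by 1.86 to 2.53 (6.24% of all tested probes were called lower), so none spanned the range of Mest. Arpc1b averaged 8.74 ± 0.06 in piPS-2F, 8.26 ± 0.28 in pESC-B, 7.94 ± 0.11 in pNSC, 9.44 ± 0.001 in fESC and 10.22 ± 0.05 in fNSC, and was detected on every array. It fell by 2.28 ± 0.16 in pNSC against fNSC, where ILMN_2846904 fell by 8.37. In piPS-2F against pESC-B, where 4.47% of all tested probes were called higher, Cwc22 alone of the 6 was called (1.37 ± 0.25). Arpc1b differed there by 0.48 ± 0.16 and Zfand1 by 0.15 ± 0.15. None of the 6 is on the lists of imprinted genes used here.

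**Figure D5:**
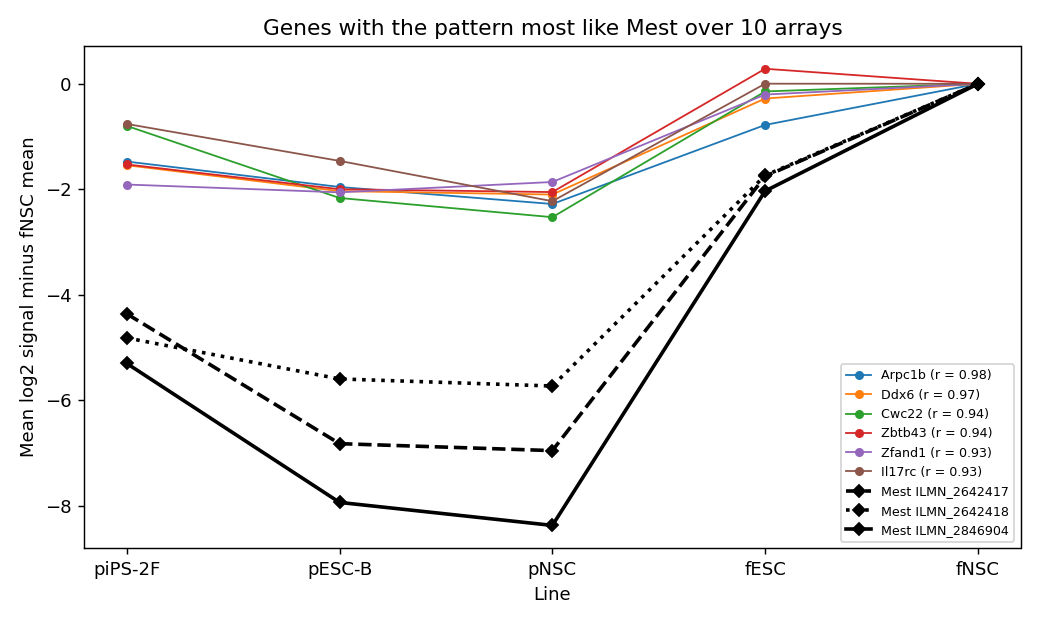
Mean log2 signal of each probe minus its own fNSC mean (vertical axis) in the 5 lines (horizontal axis), for the 3 Mest probes (black diamonds) and the 6 genes most like ILMN_2846904 (coloured circles, with r over 10 arrays). In pNSC the Mest probes lie at -8.37, -6.96 and -5.73, and Arpc1b at -2.28.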

How the data were processed

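Total RNA of 5 mouse cell lines, 2 arrays each, was linearly amplified and labelled with biotin, per the labels' protocols, for Illumina arrays. The authors deposited an intensity per probe and array, not normalized and with background already subtracted (22.9% to 28.3% of an array's values lie below 0), and a detection p-value for each, per the file headers. Per the submitters' processing notes the tools were BeadStudio 3.2, RMA and lumi, with no settings. A second table deposited by the authors holds processed values, taken as log2 from their range, since no source names the base; it served as an alternative. Columns headed NSC-F and ESC-F were read as the female lines. Arrays limit the precision by their number, 2 per line.

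Probes were named from the platform annotation: 23978 of 25697 had 1 symbol and 1719 none. The signals were computed in R 4.3.3 by limma 3.58.1 (neqc: background from detection p-values, offset 16, quantile normalization, log2). Probes with a detection p under 0.01 on both arrays of at least 1 line were kept (13564). The fit used lmFit and eBayes with 5 residual degrees of freedom and Benjamini-Hochberg adjustment over all kept probes, and was tested on simulated data. Quantile normalization assumes 1 distribution of signals. In lists, a gene's kept probe with the highest mean signal was used. Every Mest probe is named. List genes are named where a result turns on them, and the 6 genes most like Mest by correlation. Neighbours are protein-coding genes by RefSeq order. Mest and the lists were chosen with earlier results of these data known. Alternatives were the offset, background correction, scaling, the authors' values, filters, probe summaries, the arrays fitted, a replicate block, the fold minimum and leaving out each array. Sequences are from RefSeq tables of GRCm38.p6. No source used here names a genome build for the probes.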

Additional observations from a re-analysis of the deposited data

Results flagged for a closer look

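The gap between a parthenogenetic and a female line was compared between pairs of lines by contrasts of the difference itself. For pESC-B minus fESC against pNSC minus fNSC, the contrast was 2.47 ± 0.26 (SE) for ILMN_2846904 (adjusted p = 6.3e-05), 1.88 ± 0.27 for ILMN_2642417 (4.1e-04) and 1.87 ± 0.26 for ILMN_2642418 (3.6e-04). Of all tested probes 14.8% were called that way. This contrast cannot decide whether the gaps differ. As Mest was undetected in pESC-B and pNSC, both gaps are lower bounds, which of them is the smaller was not measured, and each value is the difference between the undetected lines (0.13 to 0.44) minus that between fESC and fNSC (-2.03 to -1.74). For piPS-2F minus fESC against pNSC minus fNSC, the contrast was 5.10 ± 0.26 for ILMN_2846904 (adjusted p = 1.7e-06), 4.35 ± 0.27 for ILMN_2642417 (4.6e-06) and 2.65 ± 0.26 for ILMN_2642418 (5.9e-05). Of all tested probes 13.9% were called that way. That contrast equals the change from pNSC to piPS-2F minus the difference between fESC and fNSC. As Mest was undetected in pNSC, the neural gap is a lower bound and these sizes rest in part on background. By ILMN_2846904 and ILMN_2642417 the piPS-2F gap, 9.64-fold and 6.10-fold, was smaller than the neural bounds, 156-fold and 69.1-fold. ILMN_2642418 was at background in piPS-2F too.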

How the results depend on the processing

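Under 21 alternatives the 30 results for single Mest probes gave 590 values. Of these 581 kept their side of the threshold, 9 newly passed it and none lost it. No called result reversed its direction. The uncalled difference of ILMN_2642417 between pESC-B and pNSC, undetected in both, did change sign. It was 0.13, and reached -0.15 when 1 array was left out. The 9 concern dim signals. ILMN_2642418 was called in piPS-2F against pNSC without background correction (1.21), with the authors' values (1.97) and with no minimum fold (0.91), and against pESC-B with the authors' values (1.54) and with no minimum fold (0.78). Leaving out 1 array gave 0.68 to 1.21 and 0.54 to 1.07 for these 2 differences, and both were called without piPS-2F replicate 1. ILMN_2846904 was called between pESC-B and pNSC, undetected in both, without background correction (1.01) and with the authors' values (1.30), so that 1 of 3 probes was called under each. For the other pairs, the difference of ILMN_2846904 ranged from -10.6 to -7.02 in pNSC against fNSC and from -7.19 to -4.82 in pESC-B against fESC.

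The count of all called probes changed by over 1.5 times with an offset of 50 in pNSC against fNSC (933, against 1497), piPS-2F against fESC (2242, against 3375), piPS-2F against pESC-B (660.0, against 1237) and the averaged contrast (938, against 1566; 2589 with the authors' values). With no minimum fold it grew in all 10 contrasts, and by over 1.5 times in 9 of them (1.51 to 5.17 times). Among those 9 it ran from 3800 probes in piPS-2F against pESC-B to 10180 in pESC-B against pNSC.

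Replicate numbers did not pair the arrays, as the differences between replicates correlated at -0.104 to 0.099 between lines. With the replicate block no call changed, the adjusted p of the 25 called results was 1.4e-08 to 7.6e-04, and 1496 probes were called in pNSC against fNSC. Dim probes and 2 arrays per line limit all values for pNSC, pESC-B and piPS-2F.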
